A study of Mus musculus with 16 samples.

Results

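The antioxidant enzymes described here are 10 genes, Sod1, Sod2, Sod3, Cat, Gpx1, Gpx3, Nqo1, Gclc, Gclm and Txnrd1, chosen by name. They were measured by 23 of the 45101 probes on the array, taken as every probe whose only gene symbol is one of them, and they make up 10 of the 18193 genes named. The study asked whether L-methionine (MET) given with valproic acid (VPA) alters gene expression in the cochlea of male DBA/2J mice, an inbred strain with early, progressive hearing loss that carries hearing loss alleles of Cdh23 and Fscn2 in every group used here. The 4 weeks group was 5 uninjected mice, 4 weeks of age. The control group was 5 mice, 12 weeks of age, injected under the skin once daily over 8 weeks with the vehicle, 0.1 M sodium bicarbonate. The M+V group was 6 mice of the same 12 weeks of age injected in that vehicle with MET at 500 mg/kg and VPA at 300 mg/kg. Each array held the RNA of 1 whole left cochlea from 1 mouse, so hair cells, neurons, bone, marrow and blood were measured together. In such tissue, fewer cells of a type and less RNA per cell cannot be told apart.

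Superoxide, a by-product of respiration and a product of NADPH oxidases, is turned into hydrogen peroxide by superoxide dismutases, and catalase and the glutathione and thioredoxin systems remove the peroxide. Glutathione is built from glutamate, cysteine and glycine, and methionine is a source of the cysteine. Many of these genes are known targets of the transcription factor Nrf2, which binds the antioxidant response element, and oxidative damage is a widely studied feature of hearing loss from noise, drugs and age.

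Of the 10 enzymes, 9 could be tested, and only Gpx3, the secreted glutathione peroxidase of plasma and extracellular fluid, passed the test in any comparison. It rose 1.59-fold in M+V-treated cochleae and 1.63-fold in control cochleae relative to 4 weeks, and the 4 weeks arrays serve both comparisons. No enzyme passed the test between M+V-treated and control cochleae.

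The sequences upstream of the genes are shown first, because several of the enzymes are known targets of 1 regulator. RefSeq promoters of assembly GRCm38.p6 were found for 8 of the 10 genes, and Sod3 and Gclc had no entry. The core of the antioxidant response element, spelled TGACNNNGC and read GCNNNGTCA on the other strand, was searched in the 250 bases before each start. It occurred in 3 of the 8 genes, Sod1, Gclm and Txnrd1, and in 11.5% of all 27025 genes with such a window (10.2% of 32851 windows). Capitals mark the match, which in all 3 lay on the strand opposite to the gene, and each is shown with the bases around it.
Sod1, chr16:90220696-90220724, plus strand: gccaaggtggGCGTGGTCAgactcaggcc
Gclm, chr3:122245413-122245441, plus strand: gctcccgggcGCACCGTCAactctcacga
Txnrd1, chr10:82859104-82859132, plus strand: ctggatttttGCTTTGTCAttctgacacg
The first base of the match lay at -56 for Sod1, -134 for Gclm and -92 for 1 of the 3 Txnrd1 starts, counted back from the start of that promoter entry. For Gclm this start lies inside the gene span given below, which begins farther upstream. The window of Gpx3, the gene that rose, is shown whole because it holds 0 matches to these letters, and so has no capitals.
Gpx3, chr11:54902604-54902853, plus strand: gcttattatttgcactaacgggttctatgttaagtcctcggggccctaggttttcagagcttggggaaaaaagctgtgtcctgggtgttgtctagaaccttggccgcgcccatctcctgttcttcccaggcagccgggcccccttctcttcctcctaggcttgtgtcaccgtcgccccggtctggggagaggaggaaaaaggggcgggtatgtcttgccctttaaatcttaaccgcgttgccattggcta
It holds 11 CpG and 55.2% G or C, against a median of 52.4% over all windows. A match, or the lack of one, describes these letters only.

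The values are log2 signals, and levels of different probes are not compared, because probes differ in brightness. A gene was read from its brightest probe among those that reached the array's median (6.90 in every array) in all arrays of at least 1 group. 16 of the 23 probes and 9 of the 10 enzymes passed this filter, and each of the 9 passed it in all 3 groups. Differences were tested with limma over all 16 arrays and called at an adjusted p under 0.05, adjusted over all 21391 tested probes. The arrays fell into 2 batches by the signal of the bacterial bioB spike-in added at hybridisation, 8.91 to 9.62 in 8 arrays and 5.73 to 6.08 in the other 8. All 5 of the 4 weeks arrays, control replicate 1 and M+V replicates 1 and 2 were in the high batch. The array of M+V replicate 1 stood apart: its mean over 8 erythroid genes was 5.12, against 10.21 to 11.27 in the other 15 arrays, and it had the highest means of the neutrophil list (13.96) and the macrophage list (10.55). Its mean of the B cell list was 7.51, against 9.12 to 10.47 in the other arrays. It also had the lowest means of the bone and matrix list (10.39) and the cochlea list (9.60), so it differed in more than erythroid genes. Markers of the cochlea reached the array median in some arrays for all of 15 genes except Slc26a5, which encodes the motor protein of outer hair cells.

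**Figure D1:**
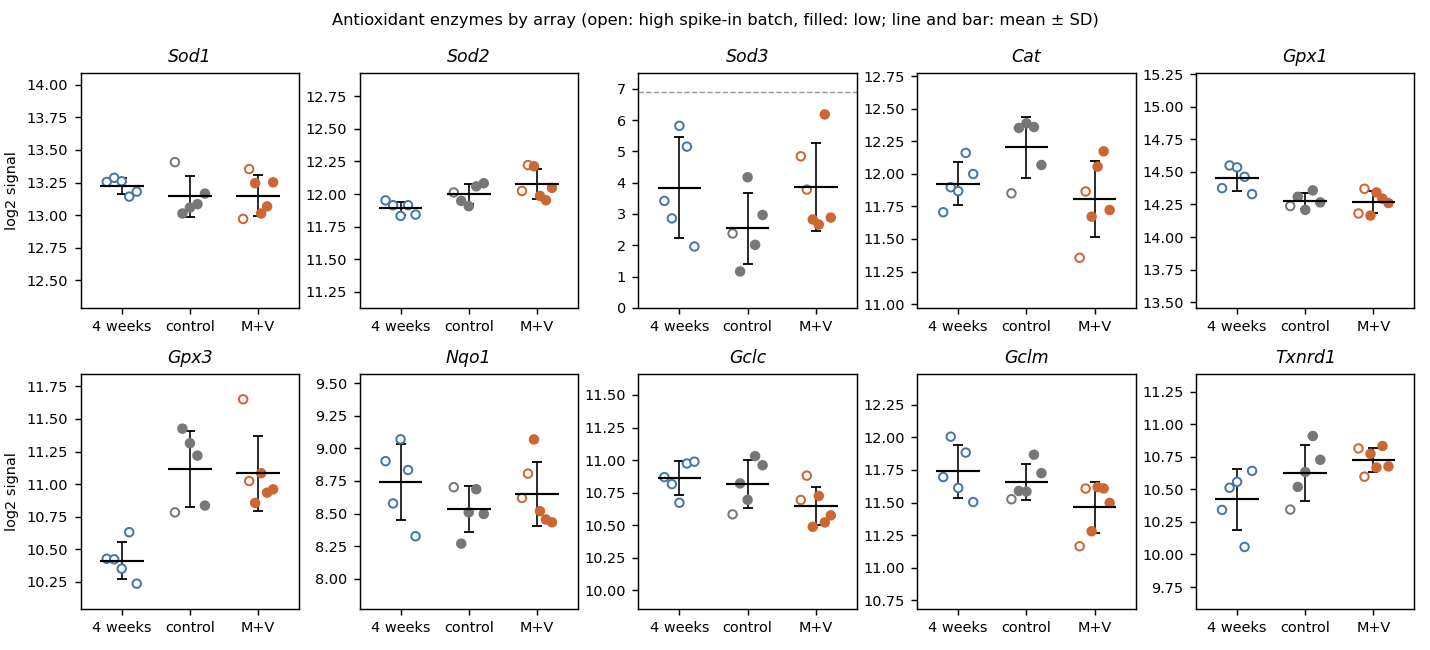
Log2 signal of each enzyme in every array (points, 5, 5 and 6 per group) with the group mean ± SD, open points for the high spike-in batch and filled points for the low batch. Gpx3 at 4 weeks lay below every array of both other groups, and every Sod3 value lay below the array median of 6.90 (dashed line). Axes span 1.8 log2 units except for Sod3.

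Sod1, the cytosolic and copper-dependent dismutase (chr16:90220762-90226333), differed least with treatment when each enzyme was read from its brightest probe. Its signal was 13.22 ± 0.06 (SD, n = 5) at 4 weeks, 13.15 ± 0.16 (n = 5) in control and 13.15 ± 0.15 (n = 6) in M+V-treated cochleae. The difference between M+V and control was 0.00 (95% interval -0.19 to 0.20), so by this probe a change of more than about 0.20 lies outside the interval. Of its other 4 probes, both that passed the filter overlapped as well. Their differences between M+V and control were 0.05 (95% interval -0.12 to 0.22) and 0.10 (-0.16 to 0.36), with higher upper bounds. The dimmer pair gave 0.27 and 0.00.

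Sod2, the manganese dismutase of mitochondria (chr17:13007839-13018119), was 11.95, 11.91, 11.83, 11.91 and 11.84 at 4 weeks. In control cochleae it was 12.01, 11.95, 11.91, 12.06 and 12.08. In M+V-treated cochleae its lowest value was 11.95, its median 12.04 and its highest 12.22. M+V-treated cochleae just cleared those at 4 weeks, while control overlapped with both. The difference between M+V and 4 weeks was 0.18 (SE 0.07) and did not pass (limma adjusted p = 0.150), nor did that between M+V and control, 0.07 (95% interval -0.08 to 0.23). Another of its probes, read at lower signal, gave 0.23 between M+V and 4 weeks (limma adjusted p = 0.0943) and 0.27 between control and 4 weeks (adjusted p = 0.132). By that probe control and 4 weeks did not overlap. The remaining probes gave 0.19 and 0.20 between M+V and 4 weeks, and 0.01 and 0.03 between control and 4 weeks. Between M+V and control the other 3 probes gave -0.04, 0.18 and 0.17.

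Sod3, the extracellular dismutase (chr5:52363804-52369738), was below the array median in all 16 arrays by both its probes. Its brighter probe ranged from 1.96 to 5.82 at 4 weeks, from 1.16 to 4.17 in control and from 2.66 to 6.18 in M+V-treated cochleae. The groups overlapped over most of their range. Without the filter the difference between M+V and control was 1.32, with a 95% interval of -0.39 to 3.03, and the other probe gave -0.35, so no direction can be read for this gene.

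Catalase, encoded by Cat (chr2:103453904-103485153), breaks down hydrogen peroxide in peroxisomes and is abundant in red cells. It was 11.85, 12.35, 12.39, 12.36 and 12.07 in control cochleae, and its lowest, median and highest values in M+V-treated cochleae were 11.36, 11.79 and 12.17. At 4 weeks it was 11.71, 11.90, 11.87, 12.16 and 12.00. Most M+V arrays lay under most control arrays, but the groups overlapped. Cat had the smallest p of the enzymes between M+V and control, -0.40 (SE 0.14, 95% interval -0.70 to -0.10), and did not pass (unadjusted p = 0.0124, limma adjusted p = 0.455). An unadjusted p under 0.05 was reached by 1 of the 9 enzymes, where 8.82% of all genes reached it. The exact permutation test on these arrays, 1 of 10 run for this comparison and not adjusted, gave p = 0.0433 over 462 regroupings.

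The Cat difference was -0.39 within the low batch (4 against 4 arrays, exact permutation p = 0.0571). Its second probe gave -0.17 (95% interval -0.40 to 0.06), and against 4 weeks -0.24 for M+V and -0.07 for control, where the first gave -0.12 and 0.28, none of them past the test. Cat was lowest in M+V replicate 1, the array with the low erythroid signal, and without it the difference was -0.31. With the mean of the erythroid list as a covariate it was -0.26. That covariate, relative to the mean of each gene, was -5.35 in M+V replicate 1 and -0.25 to 0.81 in the other arrays. Here and for the other enzymes it rests mostly on that array, so it cannot separate erythroid content from the rest of what set that array apart. Of the 13 erythroid genes listed, 8 had a probe that carried no other gene symbol, and probes shared between genes were not read. The summed signal of the 8 (log2) ran from 14.76 to 15.35 at 4 weeks, 14.74 to 15.26 in control and 12.47 to 15.06 in M+V-treated cochleae. By such a probe Hba-a1 was below the array median everywhere. The part of erythroid cells in the Cat difference was not tested further.

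**Figure D2:**
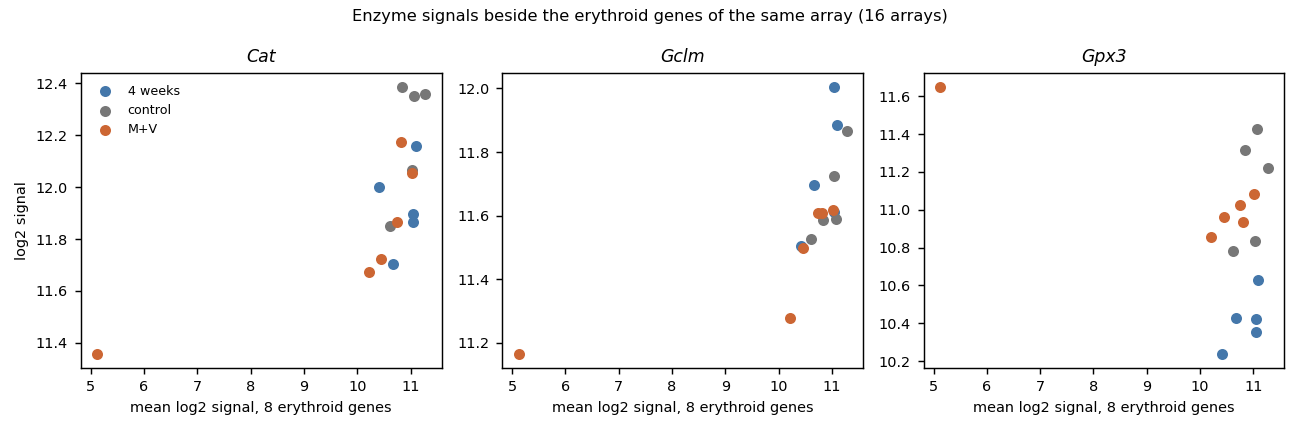
Log2 signal of Cat, Gclm and Gpx3 (y axes) against the mean log2 signal of 8 erythroid genes in the same array (x axis), 16 arrays coloured by group. M+V replicate 1, at 5.12 on the x axis, has the lowest Cat, the lowest Gclm and the highest Gpx3 signal of all arrays.

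Gpx1, the glutathione peroxidase found in the cytosol of most cells (chr9:108339080-108340342), was 14.37, 14.55, 14.53, 14.46 and 14.33 at 4 weeks. It was 14.24, 14.31, 14.21, 14.36 and 14.27 in control cochleae, and the lowest, median and highest values in M+V-treated cochleae were 14.16, 14.27 and 14.37. Control and M+V-treated cochleae covered the same range, and the upper arrays at 4 weeks lay above it. The differences from 4 weeks were -0.18 for M+V and -0.17 for control, and neither passed (limma adjusted p = 0.143 and 0.300). Between M+V and control the difference was -0.01 (95% interval -0.16 to 0.14).

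Gpx3 (chr11:54902854-54910387) was 10.43, 10.42, 10.35, 10.63 and 10.24 at 4 weeks. In control cochleae it was 10.78, 11.43, 11.31, 11.22 and 10.84. In M+V-treated cochleae its lowest value was 10.86, its median 10.99 and its highest 11.65. Every array at 12 weeks lay above every array at 4 weeks. The group means were 10.41 ± 0.14 (SD, n = 5), 11.12 ± 0.29 (n = 5) and 11.08 ± 0.29 (n = 6).

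Gpx3 rose by 0.67 on the log2 scale in M+V-treated cochleae relative to 4 weeks (SE 0.15, 95% interval 0.36 to 0.98, limma adjusted p = 0.0155). It was the 1 enzyme of 9 called higher in a comparison that called 2.52% of all genes higher, and by log2 difference it stood at rank 141 of 11457 genes. It rose by 0.70 in control cochleae relative to 4 weeks (SE 0.15, 95% interval 0.38 to 1.03, limma adjusted p = 0.0309), where 0.402% of all genes were called higher, and stood at rank 75. Both calls were lost by the methods' test (adjusted p = 0.0667 for M+V and 0.108 for control) and without a filter on low values (limma adjusted p = 0.0659 and 0.128). That in control was also lost with the 25th percentile filter (limma adjusted p = 0.0628) and the replicate block (adjusted p = 0.0698). Gpx3 and Sod2 were the 2 of 9 enzymes whose M+V and 4 weeks groups did not overlap, where 5.08% of all genes did not, and Gpx3 the 1 of 9 for control and 4 weeks (5.93% of all genes). Between M+V and control the difference was -0.03 (95% interval -0.34 to 0.28), smaller than the SD within either group. It was -0.24 within the low batch (4 against 4 arrays), 0.55 within the high batch (2 M+V arrays and 1 control array) and -0.16 with the erythroid covariate. The exact permutation p was 0.00216 for M+V against 4 weeks and 0.00794 for control against 4 weeks, in both cases the smallest the number of arrays allows.

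Age and injection were not independent for any gene, since the 4 weeks mice were uninjected and every older mouse was injected. No array came from an older uninjected mouse, so the comparisons with 4 weeks cannot separate age from injection. Age and spike-in batch were also not independent for Gpx3, since every 4 weeks array was in the high batch. Within that batch the difference from 4 weeks was 0.92 for 2 M+V arrays (limma adjusted p = 0.0328) and 0.37 for the only control array, which is 1 value with no spread of its own. With the batch as a block the differences were 0.72 (adjusted p = 0.0322) and 0.77 (adjusted p = 0.0960). The rise in control cochleae also failed the threshold when any 1 of 4 weeks replicates 1, 2, 3 and 5 or control replicates 2, 3 and 4 was left out, with differences of 0.62 to 0.78 over all 16 omissions and adjusted p up to 0.0859. The rise in M+V-treated cochleae passed in all 16 omissions (0.56 to 0.73) and was 0.56 without M+V replicate 1.

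Other cell types also differed between 4 and 12 weeks. The mean of 12 neutrophil genes ran from 12.65 to 13.26 at 4 weeks, 13.28 to 13.55 in control and 13.00 to 13.96 in M+V-treated cochleae. Relative to 4 weeks, 5 of 12 genes were called higher in M+V (2.52% of all genes) and 2 of 12 in control (0.402%). The mean of 9 bone and matrix genes ran from 12.09 to 12.20, 10.85 to 11.30 and 10.39 to 11.31 in the same order of groups. Of these genes 7 of 9 were called lower in M+V and 6 of 9 in control, where 4.93% and 1.45% of all genes were called in either direction. Their part in the Gpx3 difference was not tested.

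**Figure D3:**
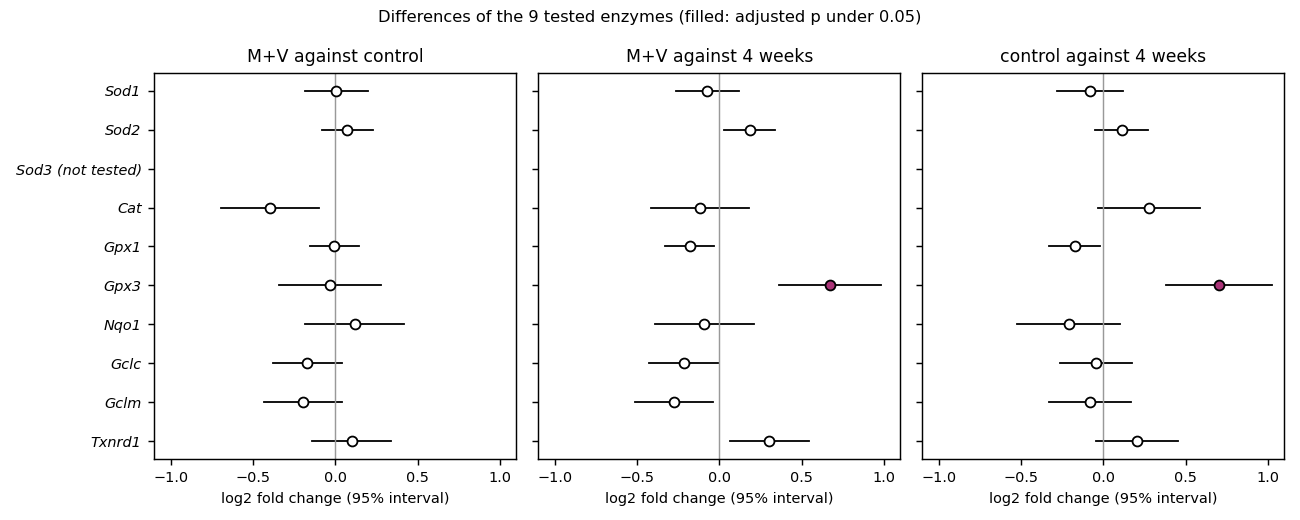
Log2 fold change with its 95% interval (x axis) for the 9 tested enzymes (rows) in the 3 comparisons. The filled points, Gpx3 against 4 weeks at 0.67 and 0.70, are those with an adjusted p under 0.05, and all 9 points between M+V and control are open.

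Glutamate-cysteine ligase, the rate-limiting enzyme of glutathione synthesis, has a catalytic subunit encoded by Gclc (chr9:77754535-77794489) and a modifier subunit encoded by Gclm (chr3:122245487-122267215). By all 4 of their probes both subunits averaged less with M+V than in control cochleae or at 4 weeks, and 0 of these differences passed the test. Gclc was 10.87, 10.82, 10.67, 10.97 and 10.99 at 4 weeks. It was 10.58, 10.82, 10.69, 11.03 and 10.96 in control cochleae, and 10.49, 10.64 and 10.88 were the lowest, median and highest values in M+V-treated cochleae. The groups overlapped, and control replicate 1 was the lowest of its group. Its difference between M+V and control was -0.17 (95% interval -0.38 to 0.04, limma adjusted p = 0.583), and its second probe gave -0.24 (95% interval -0.45 to -0.02, adjusted p = 0.480). Against 4 weeks the M+V differences were -0.22 (adjusted p = 0.215) and -0.32 (adjusted p = 0.0700). Within the batches the difference between M+V and control was -0.30 in the low batch and 0.20 in the high batch, which held 1 control and 2 M+V arrays.

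Gclm was 11.70, 12.01, 11.61, 11.88 and 11.50 at 4 weeks and 11.53, 11.59, 11.58, 11.87 and 11.73 in control cochleae. In M+V-treated cochleae its lowest, median and highest values were 11.16, 11.55 and 11.62. The groups overlapped, and M+V replicates 1 and 3 were the lowest arrays by both Gclm probes. The difference between M+V and control was -0.20 (95% interval -0.43 to 0.04, limma adjusted p = 0.577), and -0.25 by the second probe (adjusted p = 0.554). Without M+V replicate 1 it was -0.14, and with the erythroid covariate -0.10. Against 4 weeks the M+V differences were -0.28 (adjusted p = 0.157) and -0.29 (adjusted p = 0.215), and between control and 4 weeks they were -0.08 and -0.04.

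Nqo1, a quinone reductase widely used as a readout of Nrf2 activity (chr8:107388225-107403205), ranged from 8.33 to 9.07 at 4 weeks, 8.27 to 8.70 in control and 8.43 to 9.07 in M+V-treated cochleae. The groups overlapped throughout. Its difference between M+V and control was 0.12 (95% interval -0.18 to 0.42), opposite in sign to those of Gclc and Gclm.

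Txnrd1, the cytosolic selenium-containing reductase that regenerates thioredoxin (chr10:82833951-82897724), was 10.34, 10.51, 10.56, 10.06 and 10.64 at 4 weeks and 10.34, 10.52, 10.63, 10.91 and 10.73 in control cochleae. Its lowest, median and highest values in M+V-treated cochleae were 10.60, 10.73 and 10.83. The M+V arrays filled a narrow range at and above the upper end of the 4 weeks arrays and inside that of control. The difference between M+V and 4 weeks was 0.30 (SE 0.11) and did not pass (limma adjusted p = 0.124), and that between M+V and control was 0.10 (95% interval -0.14 to 0.34). The other probes, both under the filter, gave 0.13 and 0.37 between M+V and control, -0.14 and -0.69 between M+V and 4 weeks, and -0.26 and -1.05 between control and 4 weeks.

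Across the 9 tested enzymes, 4 differences between M+V and control were above 0 and 5 below. Their median was -0.01, against 0.02 over all genes, and the median size without sign was 0.10, against 0.11. The interval bound farthest from 0 was 0.70, that of Cat. Groups that did not overlap were 0 of 9, where 0.899% of all genes did not. A fold over 1.5 with an unadjusted p under 0.05, the study's own cutoffs, was reached by 0 of 9 between M+V and control (1.19% of all genes) and by Gpx3 alone in each comparison with 4 weeks (3.88% for M+V and 2.34% for control). None of the 9 passed an adjusted p of 0.05, as none of the 11457 genes did (0% called, lowest adjusted p 0.327 with limma, 2096 probes at an unadjusted p under 0.05). Relative to 4 weeks the median was -0.09 for M+V (0.03 over all genes) and -0.05 for control (0.01 over all genes). An unadjusted p under 0.05 was reached by 6 of 9 enzymes for M+V (22.1% of all genes) and 2 of 9 for control (13.9%).

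The other redox genes were read from 6 lists of 121 genes, of which 96 were tested, 93 of them above the filter in all 3 groups. Between M+V and control 0 of 96 passed, with 10 (10.4%) at an unadjusted p under 0.05, where 0% and 8.82% of all genes did. Relative to 4 weeks, 13 rose and 2 fell in M+V-treated cochleae (15.6%, against 4.93% of all genes), and 2 rose and 2 fell in control cochleae (4.17%, against 1.45%). Over the 93 genes alone, 12 rose and 2 fell in M+V (15.1%) and 1 rose and 2 fell in control (3.23%). When the fit blocked on spike-in batch, 8 of the 15 calls for M+V were lost (Cyba, Gss, Gpx7, Oplah, Gstt1, Gstt2, Msrb1 and Abcc1, limma adjusted p = 0.0519 to 0.161). So were 3 of the 4 for control (Gpx7, Msrb3 and Hmox1, adjusted p = 0.0590 to 0.229). These lists were chosen with earlier results known, and the counts are descriptions.

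Among the relatives of Gpx3, Gpx7, a glutathione peroxidase of the endoplasmic reticulum, fell while Gpx3 rose. Gpx7 was 9.07 ± 0.17 (SD, n = 5) at 4 weeks, 8.36 ± 0.21 (n = 5) in control and 8.52 ± 0.17 (n = 6) in M+V-treated cochleae. Relative to 4 weeks it differed by -0.55 in M+V (limma adjusted p = 0.0114) and -0.71 in control cochleae (adjusted p = 0.00554). With the batch block these were -0.49 (limma adjusted p = 0.0519) and -0.63 (adjusted p = 0.0748). Of the 13 tested genes of glutathione synthesis and recycling, 2 others rose in M+V relative to 4 weeks, Gss, which completes glutathione synthesis (0.48), and Oplah, which recycles oxoproline to glutamate (0.57). A second Gss probe gave 0.29 (limma adjusted p = 0.164). In control cochleae Gss differed by 0.02 relative to 4 weeks (limma adjusted p = 0.966). Oplah differed by 0.58 in control cochleae without passing (limma adjusted p = 0.0761). Gss had the smallest p of its list between M+V and control, 0.45 (limma adjusted p = 0.384), above 0 where Gclc and Gclm lay below 0. The lipid peroxide reductase Gpx4 differed by 0.03 between M+V and control (limma adjusted p = 0.923).

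Of the 18 tested glutathione transferases, which attach glutathione to reactive compounds, 3 rose in M+V relative to 4 weeks, Gstm1 (0.91, limma adjusted p = 0.000501), Gstt1 (0.49) and Gstt2 (0.35). Of these 3, Gstm1 alone passed in control cochleae (0.64, limma adjusted p = 0.0158). It went from 10.38 ± 0.16 (SD, n = 5) at 4 weeks to 11.02 ± 0.10 (n = 5), and was 11.29 ± 0.27 (n = 6) with M+V. Gstt1 and Gstt2 differed by 0.38 and 0.23 in control cochleae relative to 4 weeks (limma adjusted p = 0.212 and 0.282). Between M+V and control they differed by 0.11 and 0.12 (adjusted p = 0.801 and 0.683). Of 3 other Gstm1 probes, which gave 0.60, 1.07 and 0.97 for M+V, the last 2 passed. The Gstm genes are close copies of each other and the probe can share signal between them, so the gene is uncertain. Between M+V and control 15 of the 18 transferases lay above 0 and 3 below, where 54.9% of all genes lay above 0. Their median was 0.18, against 0.02 over all genes, and 0 passed. The transferase with the smallest p, Gstm5, was 1 of those below 0, at -0.34 (limma adjusted p = 0.460). This lean was not particular to the transferases, since 66 of all 96 tested redox genes lay above 0 between M+V and control. All 10 tested genes of superoxide production and copper supply did, and 6 of 15 in the thioredoxin and peroxiredoxin system.

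In the thioredoxin and peroxiredoxin system, 2 of 15 tested genes rose in M+V relative to 4 weeks, Txnip, the thioredoxin inhibitor (0.35, and 0.42 with a limma adjusted p of 0.0503 by a second probe), and Msrb1, a methionine sulfoxide reductase (0.62). In control cochleae another reductase of this kind, Msrb3, fell by 0.48 relative to 4 weeks. Of the 22 other Nrf2 regulators and targets, Hmox1, Pgd and Abcc1 were called higher and Me1 lower in M+V relative to 4 weeks. Hmox1, heme oxygenase, differed by 1.47 in M+V and 1.76 in control cochleae. It was below the array median at 4 weeks and, at 6.58, in M+V replicate 3. It entered the test only through the control group, so its call in control cochleae follows in part from the filter. Pgd, an NADPH-producing enzyme of the pentose phosphate pathway, rose by 0.73 in M+V and Abcc1, an exporter of glutathione conjugates, by 0.34. Me1, malic enzyme, another source of NADPH, fell by 0.63 in M+V by its brightest probe, and a second probe gave -0.25 (limma adjusted p = 0.520). In control cochleae the brightest probes of Pgd, Abcc1 and Me1 gave 0.39, 0.19 and -0.43 relative to 4 weeks without passing (limma adjusted p = 0.221, 0.358 and 0.168). Nfe2l2, which encodes Nrf2, differed by 0.09 between M+V and control and Keap1, its inhibitor, by -0.04 (limma adjusted p = 0.700 and 0.919); both, and Gpx4, were picked for their role after their values were seen.

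On the producing side, 3 of 10 tested genes of superoxide production and copper supply rose in M+V relative to 4 weeks. Cyba (0.64) and Ncf4 (0.91) are subunits of the phagocyte NADPH oxidase and Xdh (1.04) is xanthine dehydrogenase. In control cochleae these 3 differed from 4 weeks by 0.42, 0.60 and 0.72 without passing (limma adjusted p = 0.285, 0.311 and 0.210). Between M+V and control they differed by 0.22, 0.31 and 0.33 (adjusted p = 0.682, 0.696 and 0.683). In M+V relative to 4 weeks, 5 of 12 neutrophil genes were called higher, as were 2.52% of all genes. Gpx1, Gpx3 and Txnrd1 contain selenium as selenocysteine, and among 18 genes of selenium supply and other selenoproteins 0 passed in any comparison. Dio2, a selenium-containing deiodinase, came closest, at -0.59 in M+V and -0.75 in control cochleae relative to 4 weeks (limma adjusted p = 0.0833 and 0.0816). Where no gene of a list passed, the smallest p belonged to Atox1 (0.29), Msrb2 (0.28), Idh1 (0.30) and Sephs2 (0.24) between M+V and control, and to Slc31a1 (-0.34) between control and 4 weeks, at limma adjusted p of 0.148 or more.

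**Figure D4:**
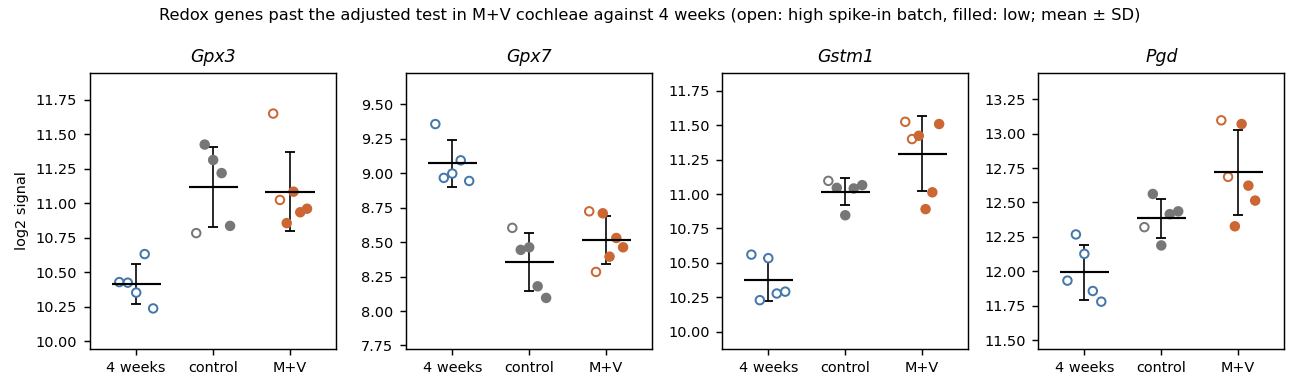
Log2 signal by array of Gpx3 and of 3 other redox genes that passed the adjusted test in M+V-treated cochleae relative to 4 weeks, with group mean ± SD, open points for the high spike-in batch and filled for the low. Gpx3, Gstm1 and Pgd were higher and Gpx7 lower than at 4 weeks, and the differences of Gpx3, Gpx7 and Gstm1 also passed in control cochleae.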

How the data were processed

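GCOS and MAS5 produced the signals (submitters' processing notes, versions not given in the sources used here). The authors quantile-normalized them across the 16 arrays and deposited them as log2 values. No present or absent calls were used here, and 64 control probes were left out. Signals below 1, which were 0.869% of the values, were raised to 1. To be tested, a probe had to be at or above the array's median (the 50th percentile) in all arrays of 1 group or more, and 21391 probes for 11457 genes were. With limma 3.58.1 under R 4.3.3 (lmFit, contrasts.fit, eBayes), a single fit gave each group its mean. P-values were two-sided and adjusted by Benjamini-Hochberg over the tested probes. A gene was read from its brightest tested probe or, with none, from a fit that had no filter. The script was tested on simulated data.

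Of the probes, 34958 carried a single gene symbol, 932 carried more and 9211 carried none. RefSeq (GRCm38.p6) held 34754 of the first kind and gave the positions. All 10 enzymes are named. In the wider lists, genes past the adjusted p are named (at most 6 a list), with the gene of smallest p where none passed. The members and lists were chosen with earlier results of these data known. Replicate numbers were not used to pair the arrays, because the labels do not say whether they pair mice. Over 15 pairs of the same number the residuals had a median correlation of 0.0126, against -0.0190 for unlike numbers. Of these pairs 6 were over 0.1 and the highest was 0.281, so the correlations cannot decide whether arrays were paired. Alternatives were other normalizations, floors, filters and tests, only the compared groups, array weights, blocks and batches, covariates for erythroid genes and for the Gapdh 3'/5' difference, other probes, and each array left out. With 5 to 6 arrays a group, their number sets the precision.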

Additional observations from a re-analysis of the deposited data

Results flagged for a closer look

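Across 78 groups of 5 to 6 arrays, for the enzymes and the redox genes named, 2 (2.56%) held an array far from the others, and chance flags about 1 in 20 groups. Gpx3 in M+V replicate 1 was the highest of its group at 11.65, with the next array at 11.08. This is the array with the low erythroid signal. Gstm1 in control replicate 3 was the lowest of its group at 10.85, with the next array at 11.04.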

How the results depend on the processing

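Of 939 values of the 10 enzymes under alternatives, 908 kept their direction or moved by under 1 SE, on the same side of the threshold. 15 fell under the threshold, all of Gpx3. 48 changed sign, none of them called, of which 16 moved by 1 SE or more. The cause was not tested. These 48 include Gpx3 between M+V and control. Gpx3 kept both calls with cyclic loess, median centring, log2(signal + 32), the 75th percentile filter, only the compared groups, array weights, and the erythroid and Gapdh covariates. Depth has no counterpart on an array, and dim probes such as those of Sod3 limit what can be read.

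Calls for Gpx3 relative to 4 weeks were lost without a filter (0.67, limma adjusted p = 0.0659, for M+V and 0.70, adjusted p = 0.128, for control). They were also lost by the methods' Welch test with adjustment (adjusted p = 0.0667 and 0.108). Each left 0 enzymes in either comparison. For control relative to 4 weeks they were also lost, leaving 0 enzymes, with the 25th percentile filter (0.70, adjusted p = 0.0628), the replicate block (0.70, adjusted p = 0.0698), the spike-in block (0.77, adjusted p = 0.0960) and in the high batch (0.37), which holds 1 control array and so says little.

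Counts of redox genes (of 96) and of all probes, first for M+V relative to 4 weeks (15 and 1129) and then for control (4 and 295), were as follows. Without a filter they were 3 and 317, then 2 and 95. By the methods' Welch test with adjustment they were 5 and 257, then 2 and 189. With array weights they were 25 and 2485, then 10 and 1012. With the 25th percentile filter M+V gave 7 and 719 and control 183 probes. With only the compared groups M+V gave 9 and 581 and control 651 probes. With the replicate block M+V gave 9 and 710 and control 166 probes. For control the spike-in block gave 1 and 170, the high batch 0 and 22 (1 control array), and the erythroid covariate 520 probes. Leaving out 1 array gave 8 (without 4 weeks replicate 4) to 22 (without M+V replicate 3) redox genes and 586 to 1798 probes (same arrays) for M+V. For control it gave 0 to 1 enzyme, 3 to 6 redox genes and 139 (without control replicate 5) to 548 (without M+V replicate 1) probes. Gpx3 ran from 0.56 to 0.73, from 0.62 to 0.78 and, between M+V and control, from -0.14 to 0.05. Gpx7, Gstm1 and Hmox1 (both comparisons) and Txnip, Pgd and Me1 (M+V) passed in all 16 omissions, though not all with the spike-in block. Xdh failed without 4 weeks replicate 1, and Cyba, Ncf4, Gss, Oplah, Gstt1, Gstt2, Msrb1, Abcc1 and Msrb3 (control) failed in 5 to 11 of the 16.

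The 16 that changed sign by 1 SE or more were those between control and 4 weeks of Sod1 (0.0276 with the spike-in block, 0.182 in the high batch), Cat (-0.00227 and -0.0754) and Txnrd1 (-0.0776 in the high batch). Others turned by another probe. For Sod1 these were 0.0268 and 0.0754 (M+V and 4 weeks) and 0.0238 (control and 4 weeks). For Sod2 it was -0.0390 (M+V and control), and for Sod3 -0.35 (M+V and control) and 0.22 (control and 4 weeks). For Cat it was -0.0693 (control and 4 weeks), and for Txnrd1 -0.14 and -0.69 (M+V and 4 weeks) and -0.26 and -1.05 (control and 4 weeks).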
